A study of Homo sapiens with 12 samples.

Results

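The 10 miRNAs described here are the 3p arms of the human let-7 hairpins: hsa-let-7a-3p, hsa-let-7a-2-3p, hsa-let-7b-3p, hsa-let-7c-3p, hsa-let-7d-3p, hsa-let-7e-3p, hsa-let-7f-1-3p, hsa-let-7f-2-3p, hsa-let-7g-3p and hsa-let-7i-3p, written without the species prefix from here on. They were chosen by name, as all let-7 3p arms among the 1733 mature miRNAs listed in the series, and no measured value entered the choice of single members. The family itself was put forward with results of these libraries in view, so the adjusted p-values below place its members among all miRNAs tested and are no independent support for the choice. Small RNA was sequenced from AsPC-1 and PANC-1, which are established human pancreatic ductal adenocarcinoma (PDAC) cell lines. In each line, 3 control libraries were compared with 3 libraries of cells transfected with siRNA against MYEOV, to learn which miRNAs change when this PDAC-associated gene is depleted. The labels give a harvest 48 h after transfection, whereas the methods give an earlier time. The labels describe the controls as untreated, and the treatment protocol names a negative-control siRNA. The siRNA used for each knockdown library, out of the pair that was purchased, is not stated. MYEOV is not a miRNA and was not measured in these libraries, so its depletion could not be checked here. Each line stands for 1 tumor, and nothing in the labels says that replicates were separate cultures, so p-values measure the spread between these libraries.

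A miRNA hairpin is cut by Drosha and Dicer into a duplex, of which 1 strand, the guide, is loaded into Argonaute and the other, the passenger strand, is mostly degraded. In the let-7 family the guide is the 5p arm, a tumor suppressor in many tissues that represses RAS, HMGA2 and MYC transcripts, and its maturation is blocked by LIN28. Several let-7 genes encode the same 5p arm, whereas most of their 3p arms differ, so that the reads of such a 3p arm show which gene copy was processed. The let-7 hairpins also differ at their ends. Those of let-7a-2, let-7c and let-7e carry the overhang that Dicer prefers, and the others receive a uridine from a terminal uridylyltransferase before Dicer cuts them.

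The mature sequences show why the 3p arms can be told apart. RefSeq (GRCh38.p14) gave a sequence for 9 of the 10 members, all but let-7f-2-3p, and these are printed 5′ to 3′ with the seed (bases 2 to 8) in capitals. Let-7a-3p, let-7b-3p and let-7f-1-3p share a seed:
let-7a-3p: cUAUACAAucuacugucuuuc
let-7b-3p: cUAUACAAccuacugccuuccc
let-7f-1-3p: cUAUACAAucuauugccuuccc
Let-7a-2-3p and let-7g-3p share another:
let-7a-2-3p: cUGUACAGccuccuagcuuucc
let-7g-3p: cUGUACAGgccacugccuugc
The other 4 each have a seed that no other of the 9 has:
let-7c-3p: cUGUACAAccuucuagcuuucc
let-7d-3p: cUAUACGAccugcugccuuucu
let-7e-3p: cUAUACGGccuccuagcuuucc
let-7i-3p: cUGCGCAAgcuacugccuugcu
The 5p arm of let-7a, shown for contrast, has the seed common to all 8 let-7 5p arms:
let-7a-5p: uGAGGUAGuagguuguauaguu
The 9 sequences of the 3p arms hold 6 seeds and are 21 or 22 bases long. Any pair of them differs by at least 2 base changes, insertions or deletions (median 6), whereas the 5p arms differ by as little as 1 (median 3). All 9 start with C. The hairpins of let-7a-1 and let-7a-2 encode an identical 5p arm, and of their mature products only the 3p arms, in capitals, differ:
let-7a-1: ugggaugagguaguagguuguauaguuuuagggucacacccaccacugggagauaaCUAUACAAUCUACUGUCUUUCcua
let-7a-2: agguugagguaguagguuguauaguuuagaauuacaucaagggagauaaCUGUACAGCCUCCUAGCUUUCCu

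In GRCh37 (hg19, the build the reads were mapped to), 8 of the 9 sequences match the genome perfectly at 1 place, inside the hairpin of that name. Let-7a-3p matches at 2 places, the hairpins of let-7a-1 and let-7a-3, and its reads cannot be divided between them. The let-7a-1 hairpin (chr9:96938234-96938325, plus strand) lies with those of let-7f-1 (chr9:96938629-96938715) and let-7d (chr9:96941116-96941202) within 2969 bp, in exons of the lncRNA gene MIRLET7A1HG, and that of let-7d also lies in an intron of MIRLET7DHG on the other strand. The let-7a-3 hairpin (chr22:46508629-46508702, plus strand) lies beside that of let-7b (chr22:46509566-46509648), in exons of the lncRNA gene MIRLET7BHG. The let-7a-2 hairpin (chr11:122017229-122017301, minus strand) lies in an intron of MIR100HG, between the hairpins of miR-100 and miR-125b-1. The let-7e hairpin (chr19:52196039-52196117, plus strand) lies between those of miR-99b and miR-125a, in an intron of SPACA6 and over an exon of the antisense gene SPACA6-AS1. The let-7c hairpin (chr21:17912143-17912236, plus strand) lies beside that of miR-99a, in an exon of MIR99AHG. The let-7f-2 hairpin (chrX:53584153-53584235, minus strand) lies beside that of miR-98, a let-7 family member by another name, in an intron of HUWE1. The let-7g hairpin (chr3:52302292-52302379, minus strand) lies in an intron of WDR82, and that of let-7i (chr12:62997466-62997550, plus strand) in an intron of MIRLET7IHG and over an exon of a lncRNA gene that has no symbol.

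The libraries held 3805084 to 7311783 reads counted to miRNAs, and a count of 3 corresponded to 0.410 to 0.788 counts-per-million (CPM). PCR copies of a molecule cannot be recognised in these counts, so that floor and the intervals below cover counting error only. No replicate libraries were identical. AsPC-1 control replicate 1 stood apart from its group, with a chi-square per degree of freedom of 224 and 183 against the other AsPC-1 controls, where those gave 22.1 against each other. The let-7 5p arms took 14.1% of its reads and 17.8% and 18.5% of theirs, so results in AsPC-1 that it moved most are also given without this library. The 5 epithelial marker miRNAs (the miR-200 family) summed to 48678 to 52667 CPM in the AsPC-1 libraries, against 212 to 276 in those of PANC-1. The 4 acinar and islet markers summed to at most 2.19 in AsPC-1 cells and at most 12.1 in PANC-1 cells. Of the 3 muscle markers, miR-1-3p stood at 124 to 173 CPM in PANC-1 cells against at most 1.54 in AsPC-1 cells. MiR-133a-3p stood at 2.77 to 4.46 CPM in PANC-1 cells and at most 0.137 in AsPC-1 cells, and miR-206 had 0 reads in all 12 libraries. The lines also differ in culture medium, and the part of these differences in the results between lines was not tested.

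The let-7 3p arms were a small pool, of 835 to 1182 CPM in all, dominated by let-7a-3p and let-7d-3p in both lines. In the AsPC-1 controls, let-7a-3p had 530 ± 97.7 CPM (SD, n = 3; CPM scaled within each line by TMM factors) and let-7d-3p 332 ± 26.6. Let-7i-3p (51.3 ± 9.10), let-7b-3p (36.3 ± 8.43), let-7f-1-3p (25.5 ± 3.34), let-7f-2-3p (22.8 ± 2.36) and let-7e-3p (15.5 ± 1.19) followed. The library ranges of let-7i-3p and let-7b-3p overlapped, as did those of let-7f-1-3p and let-7f-2-3p, and the order between the members of each pair is not resolved. Let-7a-2-3p had only 2.42 ± 0.507 CPM. In the PANC-1 controls the order below the first 2 was another one: let-7e-3p (49.5 ± 6.05 CPM), let-7a-2-3p (34.0 ± 1.17), let-7f-2-3p (29.4 ± 0.537), let-7b-3p (21.4 ± 1.58), let-7i-3p (12.04 ± 2.15) and let-7f-1-3p (5.60 ± 1.93). There the ranges of neighbours did not overlap, from let-7a-3p (548 ± 10.9) and let-7d-3p (137 ± 5.59) downward. Let-7g-3p and let-7c-3p were the least abundant in both lines. Let-7g-3p was counted with 4 to 11 reads in each AsPC-1 library and 0 to 5 in each PANC-1 library, and let-7c-3p with 0 to 5 in any library. Let-7c-3p had no read in the 3 AsPC-1 knockdown libraries, where the limit that a count of 0 allows is 0.506 to 0.537 CPM. These 2 members did not pass the filter on low counts in any fit, and 8 of the 10 members were tested in each.

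**Figure D1:**
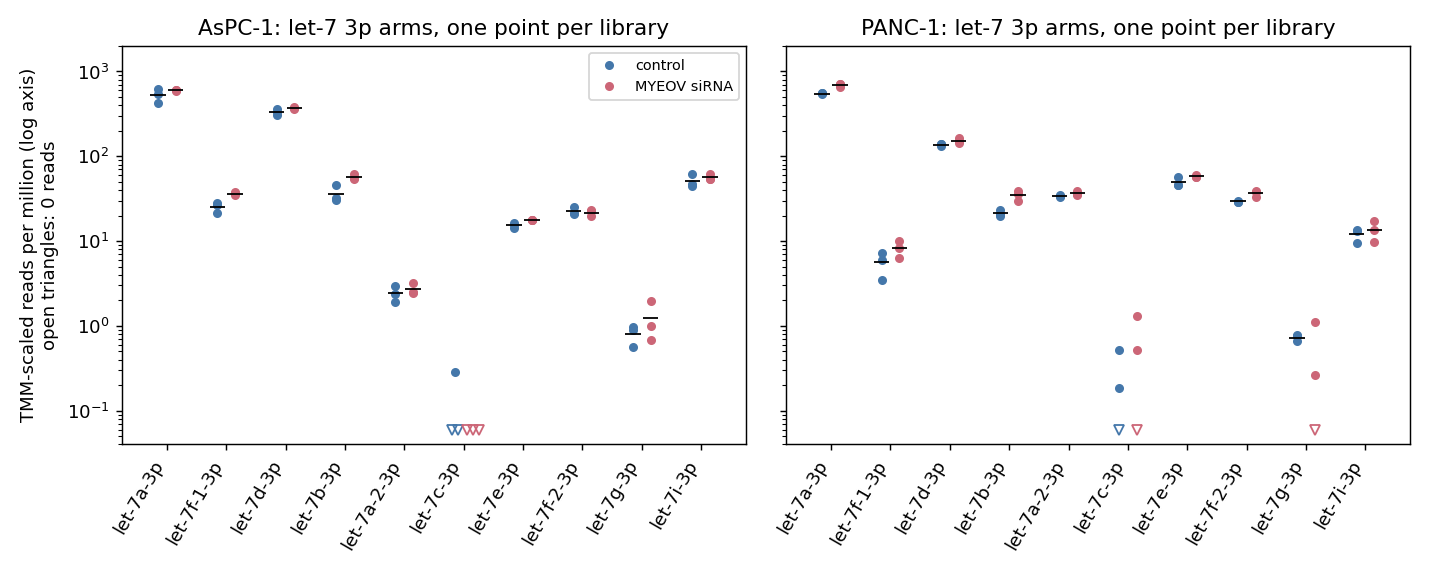
Levels of the 10 let-7 3p arms in each library of AsPC-1 (left) and PANC-1 (right), in TMM-scaled CPM on a log axis. Points are libraries, blue for controls and red for MYEOV siRNA, black lines are means of 3 libraries that all hold reads, and open triangles are libraries with 0 reads. Let-7a-3p and let-7d-3p lead in both lines, and let-7a-2-3p lies near 2.4 CPM in the AsPC-1 controls and near 34.0 in the PANC-1 controls.

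Between the lines, some 3p arms were higher and others lower. The arms of the let-7a-2 and let-7e hairpins were higher in PANC-1 cells, whereas those of let-7f-1, let-7d, let-7b and let-7i were higher in AsPC-1 cells. In the fit over the 6 control libraries, 6 of the 8 members tested differed (edgeR's quasi-likelihood test, with a Benjamini-Hochberg adjusted p under 0.05 over the whole table), 2 of them higher and 4 lower in PANC-1. The lines differ throughout, since 82.8% of the 627 miRNAs tested were called in this comparison, 46.7% higher and 36.0% lower in PANC-1, so the number of members called is not particular to the family. The median log2 fold change (LFC), PANC-1 over AsPC-1, was -0.63 over the 8 members and 0.27 over all miRNAs tested. In these cultures, fewer cells expressing a miRNA and less of it per cell cannot be told apart.

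Let-7a-2-3p showed the largest difference of the family. It was counted with 13, 17 and 21 reads in the AsPC-1 controls and with 160, 175 and 131 in the smaller PANC-1 control libraries. Scaled over both lines, these were 2.21, 2.71 and 3.26 CPM against 32.6, 30.8 and 31.8 CPM. The groups were far apart, and the level was 11.5-fold higher in PANC-1 (LFC 3.52, SE 0.20, adjusted p = 4.05e-10, edgeR). The other miRNAs of the locus were also higher in PANC-1, miR-100-5p by 11.9-fold (LFC 3.57, SE 0.10) and miR-125b-1-3p, the passenger strand of the neighbouring miR-125b-1 hairpin, by 11.9-fold as well (LFC 3.57, SE 0.13). MiR-100-3p (LFC 4.37) and miR-125b-5p (LFC 2.70), which a hairpin on chromosome 21 also encodes, passed the test as well, so that all 4 miRNAs counted with let-7a-2 were higher in PANC-1.

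Let-7e-3p followed the same direction with its neighbours. It had 16.3, 18.7 and 17.4 CPM in the AsPC-1 controls and 52.4, 43.0 and 43.5 CPM in the PANC-1 controls, without overlap. The level was 2.65-fold higher in PANC-1 (LFC 1.41, SE 0.15, adjusted p = 5.12e-07, edgeR). Its guide let-7e-5p differed by 3.05-fold (LFC 1.61, SE 0.10), and the neighbours miR-99b-5p (LFC 1.58), miR-99b-3p (LFC 1.31), miR-125a-5p (LFC 0.92) and miR-125a-3p (LFC 1.25) all passed the test in the same direction. Let-7a-2-3p and let-7e-3p are the tested arms of the hairpins that need no added uridine, and let-7c-3p, of the same class, was not tested. Of the 6 tested arms of the other hairpins, 4 were lower in PANC-1, and let-7a-3p and let-7f-2-3p did not pass the test. Whether the hairpin end bears on these differences was not tested. The miRNAs beside let-7a-2 and let-7e were higher in PANC-1 too, so hairpin end and locus cannot be told apart here.

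Among the arms that were lower in PANC-1, let-7f-1-3p and let-7i-3p differed most, and the order between them is not resolved. Let-7f-1-3p had 25.0, 31.6 and 29.8 CPM in the AsPC-1 controls and 3.26, 6.87 and 5.59 CPM in the PANC-1 controls, 5.43-fold less (LFC -2.44, SE 0.23, adjusted p = 1.39e-07, edgeR). Let-7d-3p, from the same 2969 bp on chromosome 9, had 352, 405 and 366 CPM against 121, 133 and 131 CPM. No PANC-1 library reached an AsPC-1 library, and the difference was 2.92-fold (LFC -1.54, SE 0.10, adjusted p = 2.74e-09, edgeR), close to that of its guide let-7d-5p (LFC -1.53, SE 0.09). Let-7i-3p had 71.0, 50.9 and 52.4 CPM in AsPC-1, the first of these in control replicate 1, and 12.4, 12.3 and 8.99 CPM in PANC-1. It was 5.10-fold lower there (LFC -2.35, SE 0.19, adjusted p = 1.83e-08, edgeR; -2.21 without AsPC-1 control replicate 1), with its guide at an LFC of -2.02. Let-7b-3p had 35.2, 51.8 and 35.9 CPM in AsPC-1 and 18.6, 21.7 and 19.7 CPM in PANC-1. It was 2.05-fold lower in PANC-1 (LFC -1.03, SE 0.18, adjusted p = 8.06e-05, edgeR), and its guide had an LFC of -1.09.

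Let-7a-3p and let-7f-2-3p did not pass the test, and their calls depended on the libraries and the scaling. Let-7a-3p, the sum of the let-7a-1 and let-7a-3 hairpins, had 492, 702 and 598 CPM in AsPC-1 and 514, 520 and 503 CPM in PANC-1, an LFC of -0.22 (SE 0.12, adjusted p = 0.102, edgeR). The PANC-1 values lay within the AsPC-1 range. The arms beside those hairpins, let-7f-1-3p and let-7d-3p on chromosome 9 and let-7b-3p on chromosome 22, were all lower in PANC-1, so arms from neighbouring hairpins were not all called alike. Without AsPC-1 control replicate 1, its LFC was -0.38 and passed the threshold (adjusted p = 0.00183, edgeR). Without AsPC-1 control replicate 2 it was -0.09 (adjusted p = 0.467, edgeR), and with scaling by total count it was 0.12, neither past the threshold. Let-7f-2-3p had 25.0, 28.7 and 23.5 CPM in AsPC-1 and 26.9, 28.2 and 27.5 CPM in PANC-1, overlapping groups with an LFC of 0.10 (SE 0.15, adjusted p = 0.540, edgeR). With total count scaling, which raised the median LFC of all miRNAs by 0.34, its LFC was 0.44 (adjusted p = 0.0178, edgeR), and between the knockdown libraries of the lines it was also 0.44 (adjusted p = 0.00258, edgeR). The arms of the neighbouring miR-98 hairpin, miR-98-5p (LFC 0.32) and miR-98-3p (LFC -0.81), passed the test in opposite directions.

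Most of the guide arms were lower in PANC-1. Of the 8 let-7 5p arms, let-7e-5p and let-7a-5p (LFC 0.35) were higher in PANC-1, and let-7i-5p, let-7d-5p, let-7g-5p (LFC -1.52), let-7b-5p and let-7f-5p (LFC -0.83) were lower. These were 2 higher and 5 lower, where 46.7% of all miRNAs tested were called higher in PANC-1 and 36.0% lower. Let-7c-5p did not pass the test (LFC 0.10, SE 0.12, adjusted p = 0.444, edgeR). Together the 5p arms took 14.1% to 19.1% of all miRNA reads of an AsPC-1 library and 8.72% to 10.1% of those of a PANC-1 library. At the let-7c locus, miR-99a-5p was 9.94-fold higher in PANC-1 (LFC 3.31, SE 0.13), while let-7c-3p held at most 5 reads in any library. The sequence of let-7c-5p differs from those of let-7a-5p and let-7b-5p by 1 base each, and reads shared between these arms were not tested for.

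**Figure D2:**
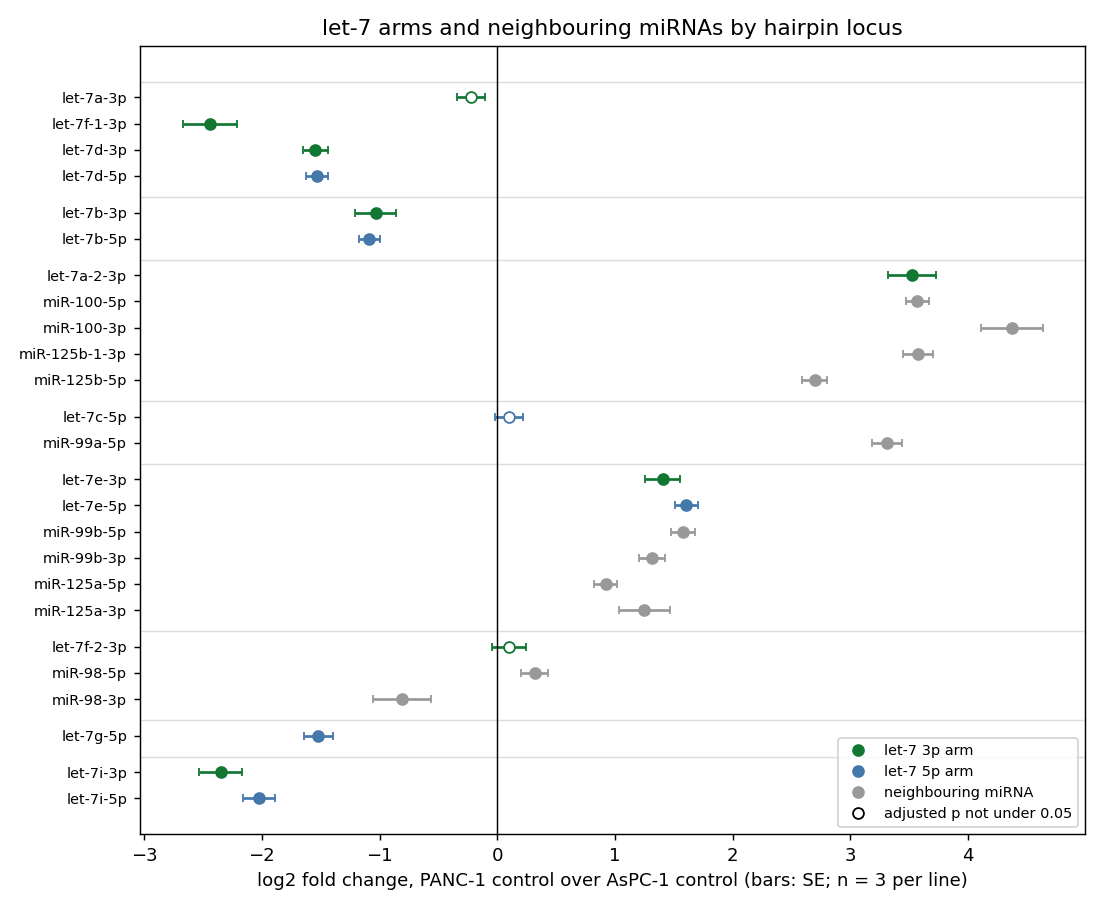
Log2 fold change of let-7 arms and neighbouring miRNAs, PANC-1 control over AsPC-1 control, grouped by hairpin locus, with bars of 1 SE and 3 libraries per line. Green points are let-7 3p arms, blue points let-7 5p arms, grey points neighbouring miRNAs and open points those without an adjusted p under 0.05. The products of the let-7a-2 locus lie between 2.70 and 4.37, those of the let-7e locus between 0.92 and 1.61, and let-7f-1-3p, let-7d-3p, let-7b-3p and let-7i-3p lie below 0.

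The 3p arms give the share of the let-7a-2 copy, and that of each let-7f copy, without any scaling between libraries. The copies let-7a-1 and let-7a-3 cannot be divided. Let-7f-2-3p, for which no sequence was found, was assigned to its hairpin by name, and its match to the genome was not checked. Let-7a-2-3p made up 0.385% to 0.543% of the let-7a-type 3p reads (let-7a-3p plus let-7a-2-3p) in the 6 AsPC-1 libraries and 4.74% to 5.97% in the 6 PANC-1 libraries. The exact (Clopper-Pearson) 95% intervals of single libraries ran from 0.220% to 0.828% in AsPC-1 and from 3.99% to 7.02% in PANC-1, so no library of a line came near those of the other. Let-7f-1-3p made up 50.0% to 65.8% of the let-7f 3p reads in each AsPC-1 library and 10.8% to 20.9% in each PANC-1 library. In each AsPC-1 library the chromosome 9 copy thus gave at least as many counted let-7f 3p reads as the X-linked copy. The intervals of AsPC-1 control replicates 1 and 2 still reached below 50.0%, to 44.1% and 47.2%. In PANC-1 most let-7f 3p reads came from the X-linked let-7f-2. These shares are those of passenger strands that were counted, and the share of each copy in the guide was not measured.

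**Figure D3:**
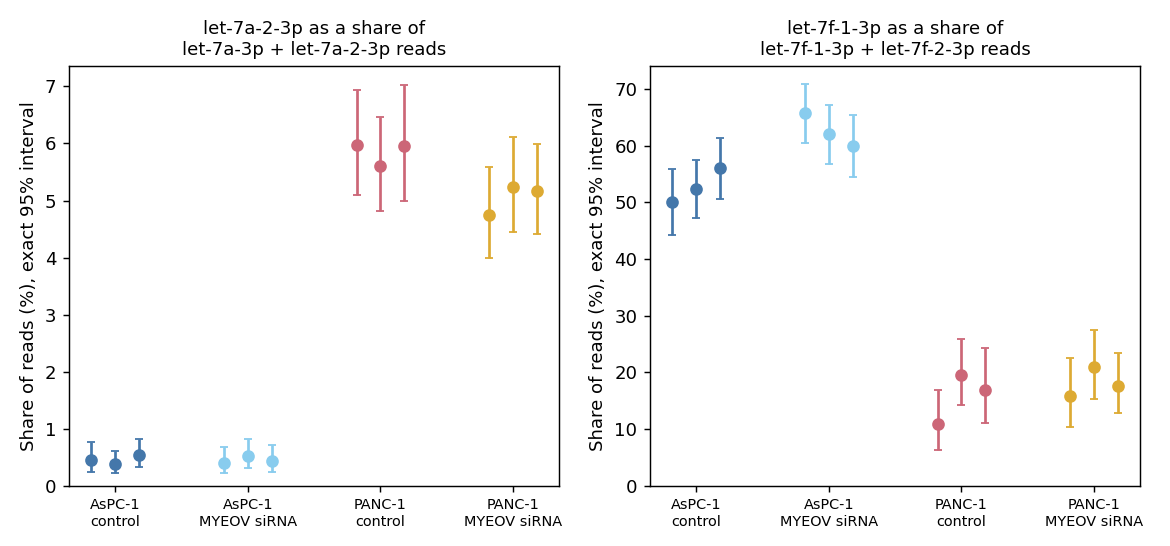
Share of let-7a-2-3p in let-7a-type 3p reads (left) and of let-7f-1-3p in let-7f 3p reads (right), in percent on linear axes from 0, for each library of the 4 groups. Points are libraries and bars exact 95% intervals. The 6 PANC-1 libraries lie above the 6 AsPC-1 libraries on the left (4.74% and higher against 0.543% and lower) and below them on the right (20.9% and lower against 50.0% and higher).

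The ratio of the 3p to the 5p arm differed widely within the family, from a mean of 202 3p reads per 1000 5p reads for let-7d to 0.0248 for let-7g in the AsPC-1 controls. Let-7d had 199, 205 and 204 3p reads per 1000 5p reads in the AsPC-1 controls and 194, 201 and 207 in the PANC-1 controls. In other words 16.8% and 16.7% of the reads of the let-7d hairpin were 3p reads, where the less abundant arm took a median of 3.22% over 246 hairpins or families in AsPC-1 and 3.28% over 281 in PANC-1. Let-7e had 34.6 ± 1.04 (SD, n = 3) and 30.5 ± 6.38 3p reads per 1000 5p reads in the AsPC-1 and PANC-1 controls. Let-7b had 7.27 ± 1.34 and 7.56 ± 0.283. Let-7f had 1.77 ± 0.159 and 1.88 ± 0.0380, although the source of its 3p reads differed between the lines. Let-7i, the most abundant let-7 guide in AsPC-1 with 83463 CPM, had 0.648 ± 0.259 and 0.497 ± 0.136, and let-7g at most 0.0624 in any library. The let-7i ratio was 0.946 in AsPC-1 control replicate 1 and 0.483 and 0.514 in the other AsPC-1 controls, and without that replicate its log2 change between the lines was -0.031 instead of -0.34. Let-7c had 0.318 and 0.695, from at most 2 reads per control library.

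Only the let-7a ratio was called between the lines among the 6 let-7 families tested (limma on log2 ratios), against 33.0% of all 182 ratios tested. The let-7a family, with the 3p arms of its 3 hairpins summed, had 30.8, 36.1 and 33.1 3p reads per 1000 5p reads in the AsPC-1 controls and 25.0, 23.1 and 23.5 in the PANC-1 controls. The groups did not overlap, and the ratio was 1.40-fold lower in PANC-1 (log2 change -0.48, SE 0.11, adjusted p = 0.00993, limma). The call was lost without PANC-1 control replicate 2 (-0.46, adjusted p = 0.0668, limma). For comparison, the ratio of miR-98 was 8.08 ± 1.73 and 3.67 ± 0.821 (SD, n = 3; adjusted p = 0.0244, limma).

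**Figure D4:**
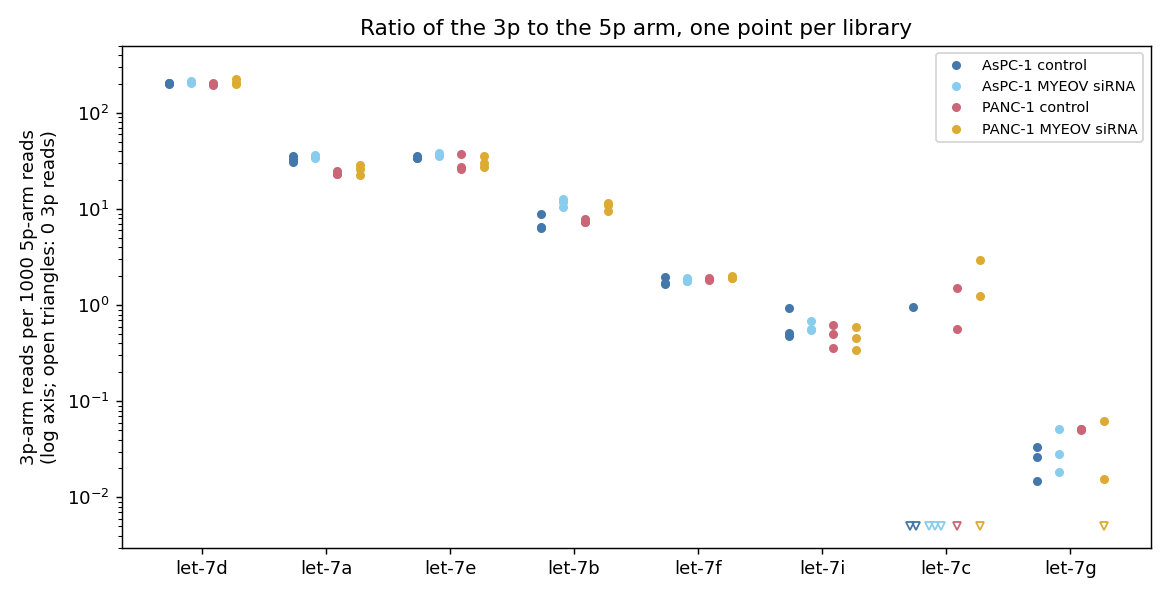
Reads of the 3p arm per 1000 reads of the 5p arm for the 8 let-7 families, on a log axis, with 1 point per library and 1 color per group. Open triangles are libraries with 0 reads of the 3p arm. The families run from let-7d near 202 to let-7g near 0.0248 in the AsPC-1 controls, and within let-7b the MYEOV siRNA libraries of each line lie above their controls.

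After MYEOV depletion in AsPC-1 cells, let-7b-3p and let-7f-1-3p rose, and none of the 8 tested let-7 3p arms was called downward. These were 2 of the 8 members tested, both upward, where 11.4% of the 498 miRNAs tested were called, 7.03% upward and 4.42% downward. The median LFC, knockdown over control, was 0.17 over the members and -0.00 over all miRNAs tested. Let-7b-3p had 30.6, 46.0 and 32.3 CPM in the controls and 62.5, 55.4 and 53.6 CPM in the knockdown libraries. Each knockdown library lay above each control, and the level rose 1.58-fold (LFC 0.66, SE 0.15, adjusted p = 0.00925, edgeR). Let-7f-1-3p, from the chromosome 9 copy of let-7f, had 21.7, 28.01 and 26.8 CPM in the controls and 37.7, 36.6 and 34.7 CPM in the knockdown libraries. The groups did not overlap either, and the level rose 1.42-fold (LFC 0.51, SE 0.13, adjusted p = 0.0207, edgeR). Its partner let-7f-2-3p, with 21.7, 25.5 and 21.1 CPM against 19.6, 22.4 and 23.1 CPM, overlapped between the groups (LFC -0.07, SE 0.14). The share of let-7f-1-3p in the let-7f 3p reads was accordingly 50.0%, 52.4% and 56.0% in the controls and 65.8%, 62.0% and 60.0% in the knockdown libraries (two-sided exact permutation test, p = 0.1, the smallest that 3 against 3 allow).

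The other 5 members tested in AsPC-1 had LFCs of 0.15 to 0.20 and did not pass the test. With all 12 libraries in 1 fit, their LFCs were 0.05 to 0.10. Let-7a-3p, the most abundant, had 428, 623 and 538 CPM in the controls and 598, 603 and 591 CPM in the knockdown libraries, which lay inside the control range. Without control replicate 1, its LFC was 0.05 instead of 0.17. The calls in AsPC-1 depended on single libraries. That of let-7b-3p was lost without control replicate 3 (LFC 0.58, adjusted p = 0.0586, edgeR) or without knockdown replicate 1 (LFC 0.58, adjusted p = 0.0568, edgeR), and that of let-7f-1-3p without knockdown replicate 1, 2 or 3 (LFC 0.48 to 0.55, adjusted p = 0.0608 to 0.112, edgeR). The let-7f-1-3p call was also lost with all 12 libraries in 1 fit (LFC 0.41, adjusted p = 0.0995, edgeR). Without control replicate 1, both stayed called (LFC 0.56 and 0.41), let-7i-3p was called as well (LFC 0.31, adjusted p = 0.0316, edgeR), and 102 instead of 57 miRNAs passed the threshold. Over the 6 fits with 1 library left out, that number ranged from 24 to 102.

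In PANC-1 cells, let-7b-3p and let-7a-3p rose, and again none of the 8 tested arms was called downward. These were 2 of the 8 members tested, a share near that of all miRNAs, since 22.0% of the 551 tested were called, 12.7% upward and 9.26% downward. The median LFC was 0.27 over the members and 0.03 over all miRNAs tested, and no tested member had an LFC below 0.11. With any 1 library left out, the LFC of let-7i-3p ranged from -0.04 to 0.34 and that of let-7a-2-3p from 0.06 to 0.14. Let-7b-3p had 20.0, 23.1 and 20.9 CPM in the controls and 29.9, 36.3 and 38.6 CPM in the knockdown libraries. The groups did not overlap, and the level rose 1.63-fold (LFC 0.71, SE 0.15, adjusted p = 7.90e-04, edgeR). Let-7a-3p had 554, 554 and 535 CPM in the controls and 711, 714 and 652 CPM in the knockdown libraries. It rose 1.26-fold, again without overlap (LFC 0.34, SE 0.08, adjusted p = 0.00370, edgeR). Both members stayed called when any 1 library was left out.

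Let-7a-2-3p, let-7f-2-3p and let-7d-3p were among the members that did not pass the test in PANC-1. Let-7a-2-3p had 35.2, 32.9 and 33.9 CPM in the controls and 35.4, 39.4 and 35.5 CPM in the knockdown libraries. Let-7f-2-3p had 29.0, 30.0 and 29.2 CPM in the controls and 33.3, 37.9 and 39.0 CPM in the knockdown libraries. For let-7d-3p these were 131, 141 and 139 against 142, 153 and 163 CPM. The LFCs of let-7a-2-3p, let-7f-2-3p and let-7d-3p were 0.11 (adjusted p = 0.568, edgeR), 0.32 (adjusted p = 0.0864, edgeR) and 0.15 (adjusted p = 0.244, edgeR). Let-7f-1-3p, with 3.52, 7.32 and 5.95 CPM against 6.24, 9.99 and 8.37 CPM, had an LFC of 0.53 with an SE of 0.27. At 16 to 39 reads per library, this change did not pass the test (adjusted p = 0.153, edgeR), and it was 0.27 without control replicate 1 and 0.81 without control replicate 2. Scaling mattered in this comparison. Scaling by total count lowered the LFC of all miRNAs by a median of 0.15, so that 18.2% of the called miRNAs rose where TMM scaling gave 57.9%. Under it let-7b-3p stayed called (LFC 0.56, adjusted p = 0.00904, edgeR), let-7a-3p did not (LFC 0.19, adjusted p = 0.115, edgeR) and let-7a-2-3p was at -0.03 instead of 0.11. The share of let-7a-2-3p in the let-7a-type 3p reads was 5.97%, 5.60% and 5.95% in the PANC-1 controls and 4.74%, 5.23% and 5.16% in the knockdown libraries (two-sided exact permutation test, p = 0.1, again the smallest possible). The number of all miRNAs called was 68 without knockdown replicate 2 and 55 without knockdown replicate 3, against 121.

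The rise of let-7b-3p was not matched by its guide. Let-7b-5p, at 4967 ± 238 CPM (SD, n = 3) in the AsPC-1 controls and 4893 ± 194 in the knockdown libraries, had an LFC of -0.02 (SE 0.08), and in PANC-1 an LFC of 0.20 (SE 0.08, adjusted p = 0.0904, edgeR). The ratio of the arms was tested directly, where it needs no scaling. In AsPC-1, let-7b had 6.44, 8.81 and 6.55 3p reads per 1000 5p reads in the controls and 12.6, 11.8 and 10.6 in the knockdown libraries. The ratio rose 1.62-fold (log2 change 0.70, SE 0.15, adjusted p = 0.0166, limma). In PANC-1 it was 7.41, 7.88 and 7.38 in the controls and 9.68, 11.7 and 10.99 in the knockdown libraries, 1.42-fold higher (log2 change 0.51, SE 0.16, adjusted p = 0.0338, limma). In both lines each knockdown library lay above each control. Let-7b was the only let-7 family of the 6 tested whose ratio was called, against 12% of 142 ratios in AsPC-1 and 17.4% of 167 in PANC-1.

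The let-7b call was lost in AsPC-1 without knockdown replicate 1 or 2 (log2 change 0.64 and 0.69, adjusted p = 0.0965 and 0.0621, limma). It was lost in PANC-1 without control replicate 2 or 3 or knockdown replicate 2 or 3 (0.45 to 0.54, adjusted p = 0.0564 to 0.148, limma). The ratios of let-7a, let-7d, let-7e, let-7f and let-7i changed by -0.11 to 0.12 on the log2 scale in both lines, and none of these 5 passed the test (let-7i in AsPC-1, at -0.06, was at 0.25 without control replicate 1). With any 1 library left out, these changes ranged from -0.32 to 0.25 and none passed the test, and in PANC-1 that of let-7a ranged from 0.04 to 0.21, that of let-7e from -0.05 to 0.21 and that of let-7i from -0.32 to 0.09. The 5p arms as a group had a median LFC of 0.12 in AsPC-1, with 0 of 8 called (1 at an unadjusted p under 0.05, let-7c-5p). In PANC-1 their median LFC was 0.22, and let-7c-5p, let-7f-5p, let-7g-5p and let-7i-5p were called upward. These were 4 of 8, where 12.7% of the 551 miRNAs tested were called upward. Let-7g-5p (adjusted p = 0.04999, edgeR) and let-7i-5p (adjusted p = 0.0461, edgeR) lay close to the threshold. With DESeq2's size factors, 2 of the 8 were called upward. With total count scaling, none of the 5p arms was called in PANC-1 (0 of 8) and their median LFC was 0.08. Of the 3p arms whose neighbours were listed, let-7a-2-3p had an LFC of 0.16 (SE 0.32) in AsPC-1, from 13 to 21 reads per library and 0.03 to 0.33 when 1 library was left out, and of 0.11 (SE 0.13) in PANC-1. At the same locus miR-125b-1-3p, also a passenger strand, rose in both lines (LFC 0.75, adjusted p = 0.00122, in AsPC-1 and LFC 0.50, adjusted p = 7.38e-05, in PANC-1, edgeR), while miR-100-5p and miR-125b-5p had LFCs of -0.04 to 0.10. No miRNA of the let-7e locus was called in either line.

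**Figure D5:**
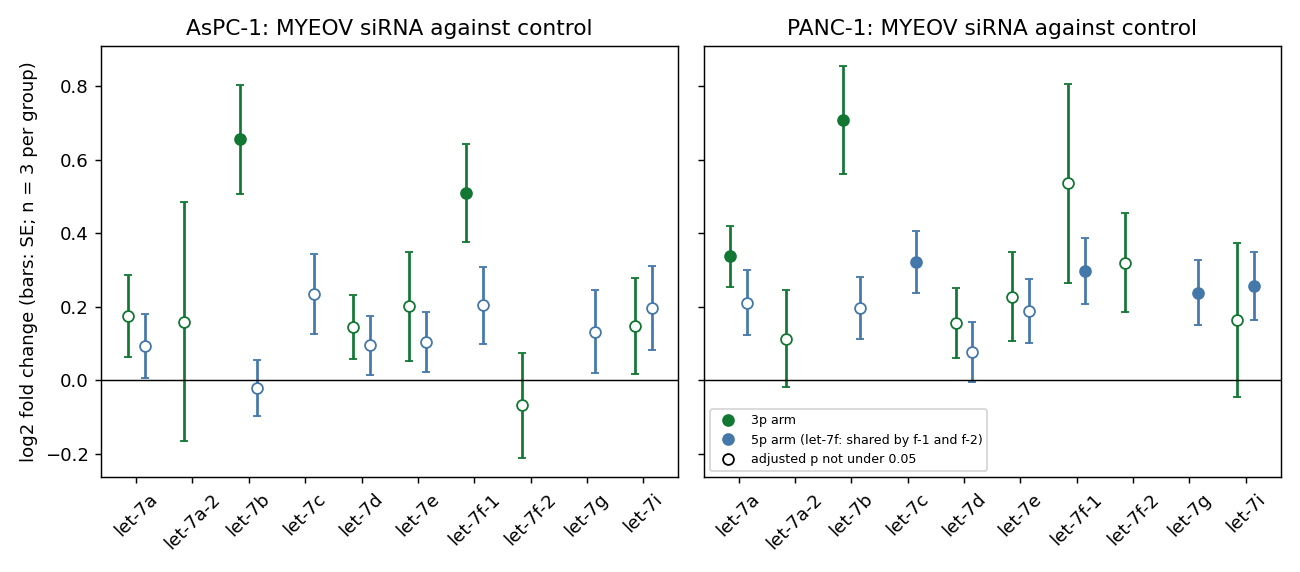
Log2 fold change after MYEOV siRNA in AsPC-1 (left) and PANC-1 (right) for the let-7 3p arms (green) and 5p arms (blue), with bars of 1 SE and 3 libraries per group. Open points have no adjusted p under 0.05. Let-7b-3p lies at 0.66 and 0.71 while let-7b-5p lies at -0.02 and 0.20.

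A difference in the response to the knockdown between the lines was not detected for any member. In 1 fit over all 12 libraries, the interaction of line and treatment was called for 0 of the 8 members tested (edgeR) and for 0.308% of the 650 miRNAs tested. At an unadjusted p under 0.05 it held 74 of the 650 miRNAs and 1 of the 8 members, a share near that of all miRNAs. This member was let-7f-2-3p (PANC-1 minus AsPC-1, 0.48, SE 0.21, adjusted p = 0.346, edgeR). With DESeq2's Wald test, DESeq2's size factors, total count scaling or no filter, the number of members called was also 0. For let-7b-3p the difference was 0.15 (SE 0.21). DESeq2's size factors shifted the median difference of all miRNAs by -0.16 and total count scaling shifted it by -0.22, and under either, 6 of the 8 members changed sign, let-7b-3p among them (-0.01 and -0.08).

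Over the 12 libraries, the miRNA with the most similar pattern was sought for each tested member, by the Pearson correlation of log2 CPM with 390 miRNAs of at least 10 CPM outside the let-7 family. Let-7a-2-3p was most like miR-134-5p (r = 0.997), let-7d-3p like miR-4677-3p (0.997), let-7i-3p like miR-326 (0.992) and let-7e-3p like miR-193a-5p (0.991). Let-7f-1-3p was most like miR-221-5p (r = 0.986) and let-7b-3p like miR-26a-2-3p (0.959), a passenger strand as well. Let-7a-3p and let-7f-2-3p, which were not called between the lines, had no partner above 0.834 (miR-3128 for let-7a-3p and miR-30e-5p, at 0.833, for let-7f-2-3p). The libraries form 2 clusters by line, so these values describe mainly the difference between the lines.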

How the data were processed

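Small RNA libraries (50-nt single reads) from AsPC-1 and PANC-1 cells were analysed in 4 groups of 3: the control and the MYEOV siRNA libraries of each line, as labelled. The deposited values are raw read counts per mature miRNA. Per the methods, the authors trimmed adapters, kept perfect genome matches of 18 to 28 nt and counted, for each miRNA, the most abundant sequence together with those sharing its 5′ end, so that reads with another 5′ end or with added 3′ bases are not in the counts. The most abundant sequence was sought near the annotated 5′ end and need not begin at exactly the base where the printed sequence begins. The submitters' processing notes name Bowtie and hg19, and the Bowtie version is not given in the sources used here. Reads of 5p arms that differ by few bases can be split between them. No column was without a sample (0).

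From these counts, miRNAs were filtered with filterByExpr (minimum count 10), scaled by TMM and tested with edgeR 4.0.16 (R 4.3.3) in 1 fit per comparison over all miRNAs, with adjusted p under 0.05 as the threshold. The SE of an LFC is its size divided by the square root of F. Arm ratios were tested as log2((3p + 0.5)/(5p + 0.5)) with limma 3.58.1 for all pairs with at least 10 counts per arm in 3 libraries. DESeq2 1.42.0 served as an alternative, besides other scalings, filters, pseudocounts, sample sets, a replicate block and leaving out each library. Intervals of shares are exact 95% binomial intervals. Library totals give a floor (3 reads) of 0.410 to 0.788 CPM.

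The miRNAs named are the 10 members, the let-7 5p arms, the miR-98 arms, the miRNAs of the let-7 clusters and, for each tested member, the miRNA most like it. The members and lists were chosen with earlier results of these data known. On simulated counts with known changes, 98% of miRNAs changed by an LFC of 1 and 73% of those changed by 0.5 were recovered in the AsPC-1 comparison (499 tested), 99% and 72% in the PANC-1 comparison (548 tested) and 98% and 67% between the lines (608 tested). Of arm ratios changed by 1 on the log2 scale, 95% were recovered in AsPC-1 (139 ratios tested), 97.5% in PANC-1 (168 tested) and 97.5% between the lines (177 tested). Of the simulated ratios called, 0%, 7.14% and 7.14% had not been changed, and of the simulated miRNAs called 3.39%, 3.93% and 2.37%. The simulated counts had the same dispersion for all miRNAs and no outlying library, and only miRNAs and arms above a minimum mean count were changed. The rates therefore need not hold for members with few reads, or for AsPC-1, where a control library stood apart.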

Additional observations from a re-analysis of the deposited data

How the results depend on the processing

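Scaling by total count left 1 member called in PANC-1 instead of 2 (let-7a-3p lost) and turned let-7a-2-3p there to -0.032 and let-7a-3p between the lines to 0.12. The difference between lines for let-7b-3p turned to -0.012 with DESeq2's size factors and with its Wald test and to -0.084 with total count scaling. With all 12 libraries in 1 fit, 1 member was called in AsPC-1 (let-7f-1-3p lost, LFC 0.41, adjusted p = 0.0995, edgeR), and 67 instead of 121 miRNAs were called in PANC-1. Without a filter on low counts, 10 instead of 2 miRNAs were called for the difference between lines. The cause of these changes was not tested. With the replicate number as a block, 1 member was called in AsPC-1 (let-7f-1-3p lost, adjusted p = 0.0779, edgeR, and 29 instead of 57 miRNAs), and 0 let-7 arm ratios (let-7b lost, adjusted p = 0.0910, limma, and 1 instead of 17 ratios). The block changed no other call, and libraries with the same number did not deviate together throughout (correlations in AsPC-1 cells were -0.16, -0.12 and 0.13, those in PANC-1 cells 0.051, 0.029 and 0.14).

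When each library was left out in turn, the members called ranged from 0 to 3 in AsPC-1, stayed at 2 in PANC-1, ranged from 6 to 7 between the lines and stayed at 0 for the difference. An arm left with 2 libraries was taken to vary as the rest. Let-7 arm ratios called ranged from 0 to 1 in each of the 3 comparisons. All miRNAs called ranged from 24 to 102 in AsPC-1, from 55 to 129 in PANC-1 and from 1 to 25 for the difference, and all ratios called from 7 to 27, from 16 to 33 and, between the lines, from 30 to 56. Signs turned only for values that were not called: let-7f-2-3p in AsPC-1 (-0.11 to 0.014) and between the lines (-0.020 to 0.18), let-7i-3p in PANC-1 (-0.037 to 0.34), the difference for let-7b-3p (-0.0032 to 0.25), and the ratios of let-7i in AsPC-1 (-0.23 to 0.25) and PANC-1 (-0.32 to 0.087), of let-7e in PANC-1 (-0.054 to 0.21), and of let-7b (-0.0035 to 0.22) and let-7d (-0.037 to 0.011) between the lines. The change of a locus share, an alternative added after seeing the data, ranged from 8.23 to 11.4 percentage points for let-7f-1-3p in AsPC-1 and from -0.14 to 4.25 in PANC-1, and from -0.04 to 0.03 and from -0.92 to -0.64 for let-7a-2-3p. Depth limits let-7c-3p and let-7g-3p, and the few reads of let-7a-2-3p in AsPC-1 and of let-7f-1-3p in PANC-1.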

Other observations

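Over all miRNA hairpins, let-7 included, most of the arm ratios that were called after MYEOV siRNA had a higher share of the less abundant (minor) arm. In AsPC-1, 17 of the 142 ratios tested were called (limma), and the minor arm was higher relative to the major arm in 16 of them and lower in 1. In PANC-1, 29 of 167 were called, 22 with a higher and 7 with a lower minor arm. With any 1 library left out, the ratios called ranged from 7 to 27 in AsPC-1 and from 16 to 33 in PANC-1. The median change of minor over major arm over all ratios was 0.09 and 0.14 on the log2 scale in AsPC-1 and PANC-1. Over the 6 let-7 families tested it was 0.07 in either line, with 5 of the 6 above 0. The minor arm has the larger counting error of the pair.

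The gut and ductal markers miR-192-5p and miR-194-5p summed to 94730 to 113391 CPM in the AsPC-1 libraries and to 373 to 482 CPM in those of PANC-1.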
